A study of Mus musculus with 19 samples.

Results

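The transcripts of 10 genes of the insulin, IGF (insulin-like growth factor) and PI3K (phosphoinositide 3-kinase) pathway were followed in mouse embryonic stem cells with or without Trim71 and Lin28a. The genes are Igf1r, Insr, Irs1, Irs2, Pik3ip1, Pik3r1, Akt1, Akt2, Tsc1 and Rictor, chosen by name from the 21685 genes of the table because the pathway is linked to Lin28 and to let-7. Each of the 10 was found once, and each passed the filter on low values. Group names give the Trim71 state first. WT-WT cells were Trimfl/fl with Lin28afl/fl, KO-WT cells Trim-/- with Lin28afl/fl, WT-KO cells Trimfl/fl with Lin28a-/-, and KO-KO cells Trim-/- with Lin28a-/-. All were male C57BL/6 cells grown in serum with leukaemia inhibitory factor and selected with magnetic beads for SSEA-1, a surface antigen of stem cells. Trim71 was deleted from conditional cells with 500 nM 4-OHT (4-hydroxytamoxifen) over 2 days, followed by at least 7 days of culture. The labels do not say how Lin28a was lost or whether Trim71-intact cells received a vehicle.

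The WT-WT and KO-WT groups held 4 libraries each, and the WT-KO and KO-KO groups 5 each. KO-WT replicate 5 was left out, since its values were the mean of its group's other libraries (largest gap 1.5e-08), so 18 libraries remained. Cells with Lin28a came from clones 1 and E3 and cells without it from clones 1-4 and C1, so the Lin28a genotype and the clone cannot be told apart. The labels do not give separate animals. The p-values measure the spread between these cultures of 4 clones that was left after days were removed, part of which may be technical. No day held clones of both sets (1 and 1-4, or E3 and C1), so removing days also removed the average difference between the sets. The SDs and ranges given below leave that difference out as well. Values are the deposited log2 expression, from which differences between days had already been removed, and a group mean is given with the SD over libraries. The read depth of each library is unknown. Trim71 stood between 8.77 and 9.55 in the Trim71-null libraries and between 10.04 and 10.996 in the others. Lin28a stood between 8.21 and 8.57 in the Lin28a-null libraries and between 9.74 and 10.26 in the others. Each gene also differed with the state of the other. Lin28a was lower in KO-WT than in WT-WT (-0.28, limma adjusted p 0.036), although the groups overlapped. In Lin28a-null cells its difference after Trim71 loss was -0.19 (adjusted p 0.0971). Trim71 was higher without Lin28a, by 0.45 in WT-KO against WT-WT (adjusted p 0.00431) and 0.38 in KO-KO against KO-WT (adjusted p 0.0111).

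As background, insulin and the IGF ligands bind the receptor tyrosine kinases encoded by Insr and Igf1r. The active receptors phosphorylate adaptor proteins, of which IRS1 and IRS2 are the best known, and these recruit PI3K through its regulatory subunit. The lipid made by PI3K brings AKT kinases to the membrane, where PDPK1 and the RICTOR-containing complex mTORC2 phosphorylate them, and AKT in turn inhibits the TSC complex and so activates mTORC1, a driver of growth and protein synthesis. LIN28A blocks the maturation of the let-7 microRNAs, which repress mRNAs that pair with the let-7 seed, and TRIM71 is an RNA-binding ubiquitin ligase that is itself a let-7 target. Several transcripts of the insulin pathway are known from other work as let-7 targets.

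The mature let-7 sequences are given first, since the 10 genes were chosen from a pathway linked to Lin28 and to let-7. Whether any difference below runs through let-7 was not tested. RefSeq held 9 different mature let-7 family members of the mouse, all with the seed GAGGUAG at bases 2 to 8, here in capitals. Of the 9, let-7a is the reference form, and let-7g and miR-98 show how the bases after the seed vary.
mmu-let-7a-5p: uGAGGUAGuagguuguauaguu
mmu-let-7g-5p: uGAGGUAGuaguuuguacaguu
mmu-miR-98-5p: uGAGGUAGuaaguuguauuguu

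A 3′ UTR was searched on the transcript strand for CTACCTCA (an 8mer, pairing with bases 2 to 8 and followed by A), CTACCTC without that A (7mer-m8), and TACCTCA without the leading C (7mer-A1). One transcript was taken per gene from GENCODE M21, on GRCm38. Of the 10 genes 9 held at least 1 such match, and Pik3r1, with a 3′ UTR of 4317 bases, held none. For comparison, 15.6% of the 12455 tested genes with an annotated 3′ UTR held a match and 3.44% held an 8mer, at a median 3′ UTR length of 1008 bases. The 3′ UTRs of these genes are longer than that, apart from Akt1 with 877 bases, so genes of similar length are the closer comparison. Among genes with a 3′ UTR within 20% of its length, as many matches as in Igf1r (3 matches) were found in 6.1%, as many as in Insr (2 matches) in 12.3%, and as many as in Irs2 (1 match) in 25.4%. For the other 6 genes with a match, between 10.3% (Akt1) and 39.6% (Irs1) of genes of similar length held 1 or more. A match is a stretch of letters and not a measured site.

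The 4 matches of the 8mer type are printed with 14 bases before them because they include that of Irs2, the gene with the largest difference below, and those of Igf1r and Insr, which were not called in any comparison. The match is in capitals. All lie in the 3′ UTR of the named gene: Igf1r at chr7:68229111-68229132 on the plus strand, Insr at chr8:3153198-3153219 on the minus strand, Irs2 at chr8:10986528-10986549 on the minus strand, and Rictor at chr15:6798082-6798103 on the plus strand.
Igf1r: tttcaaacatttatCTACCTCA
Insr: cttctcagtacagtCTACCTCA
Irs2: aaactaccacagtcCTACCTCA
Rictor: attcattttaaacaCTACCTCA

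The 7-base matches of 3 further genes are shown because their transcripts changed after Lin28a loss in different directions. They lie in the 3′ UTRs of Irs1 at chr1:82234389-82234410 on the minus strand, Akt1 at chr12:112654529-112654550 on the minus strand, and Tsc1 at chr2:28687815-28687836 on the plus strand.
Irs1: taatgatcccatattTACCTCA
Akt1: actgtgggcagcagcCTACCTC
Tsc1: tacccctctgccccaCTACCTC

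The WT-KO and WT-WT cells, which differ in Lin28a while Trim71 is present, were compared first. The adaptors Irs1 and Irs2, the PI3K regulatory subunit Pik3r1 and the kinases Akt1 and Akt2 were lower, and Tsc1 was higher. Thus 5 of the 10 genes fell, where 22.0% of all 14988 tested genes fell, and 1 rose, where 20.3% rose. Irs2 fell by 0.79 ± 0.114 (SE) log2 units, Pik3r1 by 0.61 and Irs1 by 0.57, against 0.19 for Akt1, 0.15 for Akt2 and a rise of 0.15 for Tsc1. The median log2 difference of the 10 genes was -0.17, beside -0.01 over all tested genes. A gene was called at a limma adjusted p under 0.05, adjusted over all tested genes.

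The adaptor genes showed the clearest separation of the groups. IRS2 carries the signal from both receptors, and its transcript is one of those that insulin and fasting regulate in liver. Irs2 stood at 7.03, 7.22, 7.19 and 7.22 in WT-WT and at 6.81, 6.99, 7.34 and 7.15 in KO-WT. It stood at 6.29, 6.52, 6.54, 6.21 and 6.34 in WT-KO and at 6.53, 6.42, 6.17, 6.18 and 6.21 in KO-KO. Every Lin28a-null library was lower than every Lin28a-intact library, and the Trim71 states overlapped within each Lin28a state. With Trim71 intact the ratio was 0.579 (adjusted p 5.06e-05, 4 of 4 same-day pairs lower). Without Trim71 the log2 difference was -0.77 ± 0.114, a ratio of 0.585 (adjusted p 6.04e-05, again 4 of 4 pairs).

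IRS1, the other main adaptor, was encoded by the weakest transcript of the 10. Irs1 stood at 4.24, 4.37, 4.30 and 4.40 in WT-WT and at 4.20, 4.17, 4.24 and 4.23 in KO-WT. It stood at 3.69, 3.61, 3.92, 3.88 and 3.70 in WT-KO and at 3.94, 3.95, 3.61, 3.65 and 3.75 in KO-KO. The Lin28a states did not overlap, and KO-WT and WT-WT overlapped (-0.12 ± 0.0999, adjusted p 0.458). The log2 difference was -0.57 ± 0.0925 with Trim71 intact (adjusted p 0.000142) and -0.43 ± 0.0925 without Trim71 (adjusted p 0.00141), lower in 4 of 4 pairs each time. Irs1 is the only one of the 10 with group means below 50 units, and these sizes hold for the deposited scale only.

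**Figure D1:**
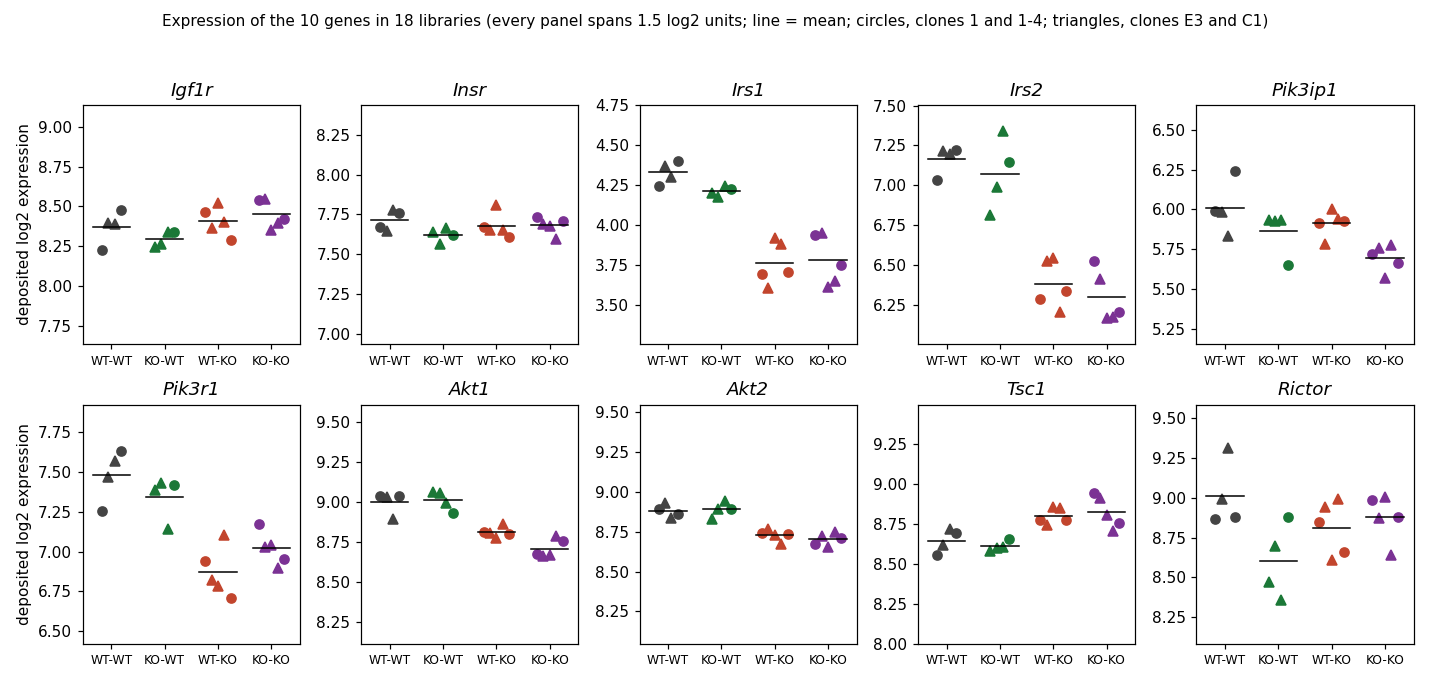
Deposited log2 expression (y axis) of the 10 genes by genotype (x axis), 1 point per library, circles for clones 1 and 1-4 and triangles for clones E3 and C1, with the group mean as a line. Every panel spans the same 1.5 log2 units. Irs1 and Irs2 lie lower in all Lin28a-null libraries, while Igf1r and Insr lie at similar heights in the 4 genotypes.

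The PI3K regulators behaved unlike each other. PIK3R1 is the p85-alpha subunit, which holds and stabilises the catalytic subunit and binds phosphorylated adaptors. Pik3r1 stood at 7.25, 7.47, 7.57 and 7.63 in WT-WT, and at 6.94, 6.82, 6.78, 7.10 and 6.71 in WT-KO. The groups did not overlap, with a log2 difference of -0.61 ± 0.1 (adjusted p 0.000156, 4 of 4 pairs lower). In KO-WT it stood at 7.39, 7.43, 7.14 and 7.42, and in KO-KO at 7.18, 7.03, 7.04, 6.90 and 6.95. Here 1 library of each group crossed the other group's range: the lowest KO-WT library, replicate 3, lay below the highest KO-KO library, replicate 1. The log2 difference without Trim71 was -0.32 ± 0.1 (adjusted p 0.0155, 4 of 4 pairs lower). That call was lost without KO-WT replicate 1 (adjusted p 0.0517), replicate 2 (0.0605) or replicate 4 (0.0533).

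PIK3IP1 is a membrane protein that inhibits the catalytic subunit of PI3K. Pik3ip1 stood at 5.99, 5.98, 5.83 and 6.24 in WT-WT, at 5.93, 5.92, 5.94 and 5.65 in KO-WT, at 5.91, 5.78, 6.00, 5.94 and 5.93 in WT-KO, and at 5.72, 5.76, 5.57, 5.78 and 5.66 in KO-KO. The KO-KO libraries were all lower than the WT-KO and the WT-WT libraries and overlapped with KO-WT. Neither Lin28a comparison was called, at -0.10 ± 0.0928 with Trim71 intact (95% interval -0.29 to 0.10, adjusted p 0.417) and -0.16 ± 0.0928 without Trim71 (-0.36 to 0.03, adjusted p 0.167). The latter was called without KO-WT replicate 4, at -0.26 (adjusted p 0.0389).

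AKT1 and AKT2 are the kinases on which the pathway converges, AKT2 being the isoform known for insulin-stimulated glucose uptake. Akt1 stood at 9.04, 9.03, 8.89 and 9.04 in WT-WT and at 9.06, 9.06, 8.99 and 8.93 in KO-WT. It stood at 8.81, 8.81, 8.77, 8.87 and 8.80 in WT-KO and at 8.67, 8.66, 8.67, 8.78 and 8.76 in KO-KO. All Lin28a-null libraries were lower than all Lin28a-intact ones, the closest being WT-WT replicate 3 and WT-KO replicate 4. With Trim71 intact Akt1 fell by 0.19 ± 0.0502 (adjusted p 0.00631). In Trim71-null cells it fell by 0.30 ± 0.0502 (adjusted p 0.000168).

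Akt2 ran from 8.84 to 8.93 in WT-WT, from 8.83 to 8.94 in KO-WT, from 8.67 to 8.77 in WT-KO and from 8.65 to 8.75 in KO-KO. The Lin28a states did not overlap here either, although the differences were small. With Trim71 intact Akt2 fell by 0.15 ± 0.0433 (adjusted p 0.00966), and in Trim71-null cells it fell by 0.19 ± 0.0433 (adjusted p 0.00241). After scaling every library to a common median the difference with Trim71 intact was -0.12 and no longer called (adjusted p 0.0591).

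TSC1 stabilises TSC2 in the complex that restrains mTORC1, and its transcript was the only one of the 10 that rose. Tsc1 stood at 8.55, 8.62, 8.72 and 8.69 in WT-WT and at 8.77, 8.74, 8.86, 8.85 and 8.78 in WT-KO. It stood at 8.58, 8.60, 8.61 and 8.66 in KO-WT and at 8.95, 8.91, 8.81, 8.71 and 8.76 in KO-KO. Neither Lin28a comparison overlapped, by a narrow margin. With Trim71 intact Tsc1 was higher by 0.15 ± 0.0573 (adjusted p 0.0408), and in Trim71-null cells by 0.22 ± 0.0573 (adjusted p 0.00644), in 4 of 4 pairs each. Leaving out 1 library at a time ended the former call 8 times of 18: without WT-WT replicate 1 (adjusted p 0.184) or 2 (0.106), without WT-KO replicate 1 (0.0619), 3 (0.101), 4 (0.0938) or 5 (0.0611), and without KO-WT replicate 1 (0.0526) or 2 (0.0511).

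RICTOR defines mTORC2, the complex that phosphorylates AKT. Rictor stood at 8.86, 8.99, 9.31 and 8.88 in WT-WT, at 8.47, 8.70, 8.36 and 8.88 in KO-WT, at 8.85, 8.94, 8.61, 8.99 and 8.66 in WT-KO, and at 8.99, 8.87, 9.004, 8.64 and 8.88 in KO-KO. It had the widest spread within groups of the 10 genes in WT-WT, at an SD of 0.207, and in KO-WT, at 0.233, and every pair of groups overlapped. With Trim71 intact all 4 same-day pairs were lower without Lin28a (log2 difference -0.20 ± 0.123, adjusted p 0.203). Without Trim71 all 4 were higher (0.28 ± 0.123, adjusted p 0.0821). Neither was called in the fit of all 4 genotypes, and both were called when only the compared genotypes were fitted, at -0.23 (adjusted p 0.00603) and 0.25 (adjusted p 0.00842). Without KO-WT replicate 4 the second was 0.40 (adjusted p 0.0162), and without KO-KO replicate 4 it was 0.36 (adjusted p 0.0292).

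The receptors were not called after Lin28a loss. Igf1r, the receptor for IGF1 and IGF2, ran from 8.23 to 8.48 in WT-WT, from 8.25 to 8.34 in KO-WT, from 8.29 to 8.52 in WT-KO and from 8.35 to 8.55 in KO-KO. KO-KO and KO-WT did not overlap, with a log2 difference of 0.16 ± 0.0656 that missed the threshold (adjusted p 0.066); with Trim71 intact it was 0.04 ± 0.0656 (95% interval -0.10 to 0.18, adjusted p 0.67). The difference of KO-KO from KO-WT was called without KO-KO replicate 3 (0.19, adjusted p 0.039) and after scaling to a common median (0.18, adjusted p 0.0309). Insr, the insulin receptor, ran from 7.65 to 7.78 in WT-WT, from 7.56 to 7.67 in KO-WT, from 7.61 to 7.81 in WT-KO and from 7.60 to 7.73 in KO-KO. Its log2 differences after Lin28a loss were -0.03 ± 0.0571 (95% interval -0.16 to 0.09) and 0.06 ± 0.0571 (-0.06 to 0.18), and neither interval reaches the size seen in Irs2.

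Without Trim71 (KO-KO against KO-WT), 5 of the 10 genes were lower, where 22.0% of all tested genes were, and 1 was higher, where 20.8% were. They were the same 6 genes as with Trim71 intact: Irs1, Irs2, Pik3r1, Akt1 and Akt2 lower, Tsc1 higher. The median over the 10 genes was -0.18, beside a median over all tested genes of -0.0008. The comparisons with and without Trim71 rest on different libraries but on the same clones.

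**Figure D2:**
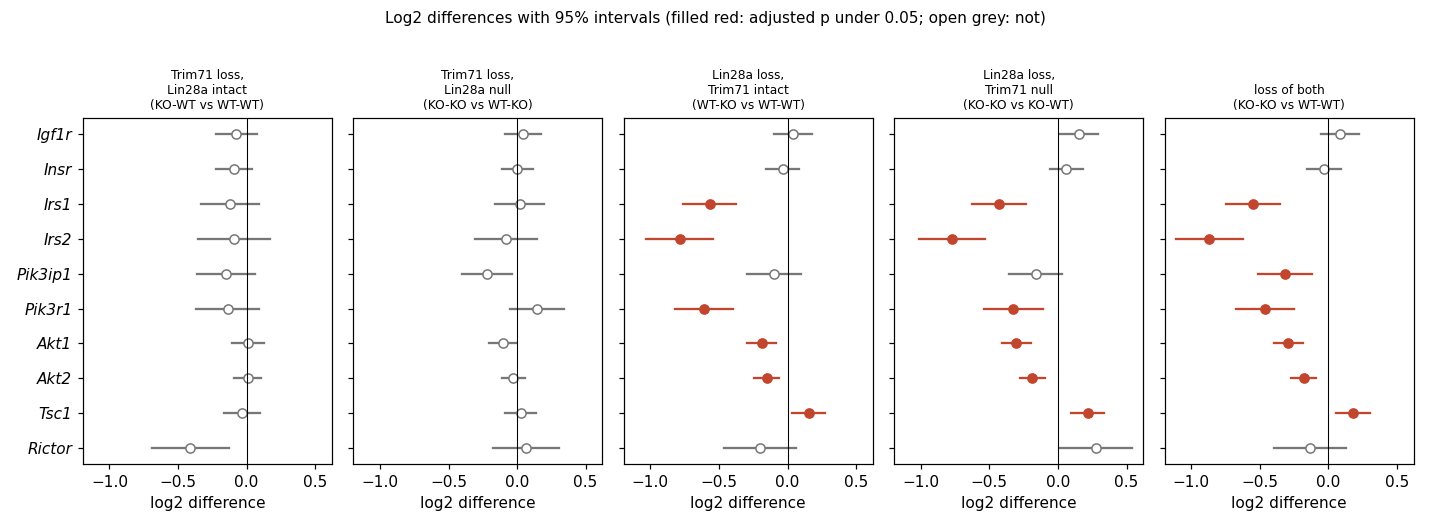
Log2 differences (x axis) of the 10 genes with 95% intervals from limma in 5 comparisons, filled red where the adjusted p was under 0.05. Irs1, Irs2 and Pik3r1 are lower in the 3 comparisons that involve Lin28a loss, and no gene is called in the 2 panels for Trim71 loss.

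No day held both clones 1 or 1-4 and clones E3 or C1, so each Lin28a comparison could be fitted within 1 set of clones. Within a set, 1 clone with Lin28a is set against 1 clone without it. The p-values there measure the spread between cultures of single clones, and genotype and clone cannot be told apart. Irs2 with Trim71 intact was -0.82 ± 0.125 in clones 1 and 1-4 and -0.79 ± 0.169 in clones E3 and C1, called in both (adjusted p 0.00161 and 0.00973). Without Trim71 it was -0.80 ± 0.161 and -0.79 ± 0.146, called in both (adjusted p 0.0121 and 0.00272). Pik3r1 with Trim71 intact was -0.62 in both sets (adjusted p 0.0111 and 0.00942). Irs1 with Trim71 intact was -0.62 and -0.54 (adjusted p 0.00752 and 0.0261). The other calls did not all hold within a set: Akt2 and Tsc1 were called in neither set in either Lin28a comparison, at values of -0.14 to -0.20 for Akt2 and 0.14 to 0.21 for Tsc1, and Akt1 was called in 1 set each. Without Trim71, Irs1 in clones 1 and 1-4 was -0.39 (adjusted p 0.153), and Pik3r1 was -0.37 in clones 1 and 1-4 (adjusted p 0.207) and -0.33 in clones E3 and C1 (adjusted p 0.0561). These fits have 2 residual degrees of freedom in clones 1 and 1-4 and 5 in clones E3 and C1. Clone 1 gave a single KO-WT library, which was assumed to vary like the other groups. Rictor was the gene whose values differed most between the sets: without Trim71 it was 0.01 in clones 1 and 1-4 and 0.33 in clones E3 and C1, neither called.

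**Figure D3:**
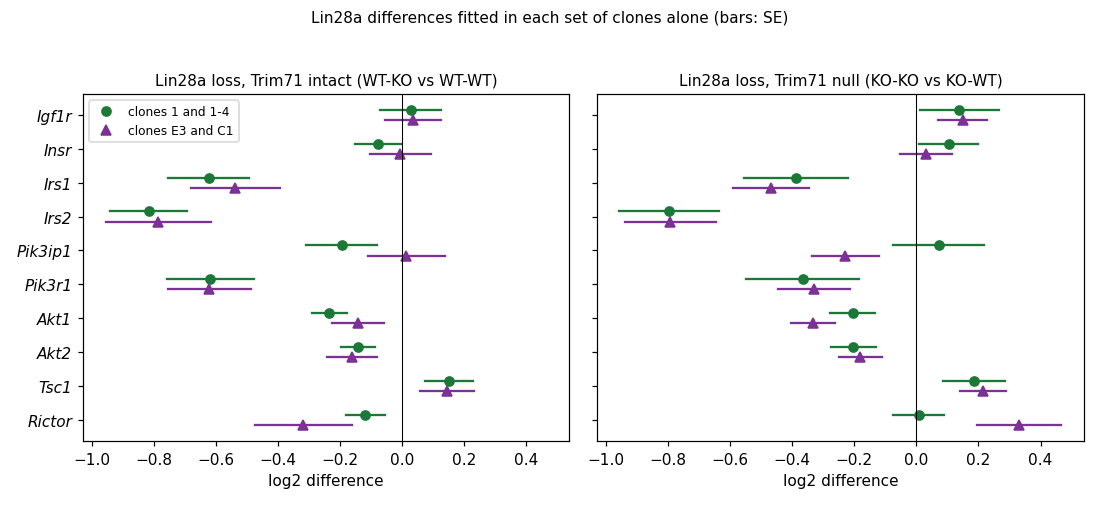
Log2 differences after Lin28a loss (x axis) fitted within clones 1 and 1-4 (circles) or clones E3 and C1 (triangles), bars showing the SE. The 2 sets lie close together for Irs2, with values from -0.82 to -0.79, and apart for Rictor and Pik3ip1.

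Summed levels of several marker lists moved with the Lin28a state, and some also differed with the Trim71 state. The primitive endoderm sums of the Trim71 states did not overlap in either Lin28a state. Pluripotency and neural sums of the Trim71 states did not overlap with Lin28a intact, and mesoderm sums did not in Lin28a-null cells. The summed level of 9 trophectoderm markers ran from 3652 to 5192 linear units in WT-WT and from 3713 to 4790 in KO-WT, against 282 to 356 in WT-KO and 308 to 461 in KO-KO. Of the 6 tested, 5 were lower in both Lin28a comparisons. The counts in this paragraph stand beside 20.3% higher and 22.0% lower of all tested genes with Trim71 intact, and 20.8% and 22.0% without it. Of the 9, Cdx2, Elf5 and Tfap2a stayed under 10 units in all 18 libraries, and most of the sum came from the keratins Krt8 and Krt18, with means of 10.96 and 10.80 in WT-WT and 6.74 and 6.60 in WT-KO. Primitive endoderm markers summed to 1447 to 1779 in WT-WT and 964 to 1259 in WT-KO, with 6 of 6 tested lower. They summed to 1903.5 to 2452.8 in KO-WT and 1364.7 to 1680.2 in KO-KO, so KO-KO overlapped with WT-WT. Most of that sum came from Lama1, with means of 10.32 in WT-WT, 10.72 in KO-WT, 10.01 in WT-KO and 10.49 in KO-KO. Pluripotency markers summed to 37228 to 39085 in WT-WT and 46281 to 52373 in WT-KO, with 6 of 8 higher. Their sums were 39441 to 42849 in KO-WT and 50309 to 53285 in KO-KO. Without Trim71, 4 of 6 endoderm markers were lower and 4 of 8 pluripotency markers higher. Neural markers summed to 489 to 620 units in WT-WT and 644 to 826 in WT-KO, and to 433 to 485 in KO-WT and 658 to 693 in KO-KO. Of the 5 tested, 3 were higher in each Lin28a comparison and 1 was lower with Trim71 intact. The largest part of the neural sum came from Tubb3, with means of 8.11 in WT-WT and 9.02 in WT-KO. Nes went the other way, with means of 7.36 in WT-WT and 6.88 in WT-KO. Fibroblast markers summed to 143 to 165 units in WT-WT and 111 to 129 in WT-KO, and to 140 to 155 in KO-WT and 127 to 145 in KO-KO, with 2 of 5 lower and 1 higher in each. The mesoderm sum was 45.8 to 48.9 units in WT-WT, 45.3 to 47.3 in KO-WT and 41.6 to 46.4 in WT-KO. In KO-KO it was 36.7 to 40.1, below the other groups. Of the 2 mesoderm markers tested, 1 was lower in each Lin28a comparison. The fibroblast and mesoderm counts are small and are not read as particular to those lists. The part of these markers in the differences of the 10 genes was not tested. In bulk RNA, fewer cells of a type and less RNA per cell cannot be told apart.

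Loss of Trim71 was compared in both Lin28a states. With Lin28a intact (KO-WT against WT-WT) 0 of the 10 genes were called, where 4.74% of all tested genes were higher and 6.43% lower. At an unadjusted p under 0.05 there was 1 of the 10 genes, beside 4376 of all tested genes. That gene was Rictor, at -0.41 ± 0.133 log2 units (95% interval -0.69 to -0.13, adjusted p 0.0571), lower in 3 of 3 same-day pairs although the groups overlapped. It was called without KO-WT replicate 4 (-0.55, adjusted p 0.0273), without WT-KO replicate 3 (0.0472) or 4 (0.0486), without KO-KO replicate 4 (0.0442), and after scaling to a common 75th percentile (0.0466). The other differences lay between -0.15 (Pik3ip1) and 0.01 (Akt1), and their median with Rictor was -0.09.

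In Lin28a-null cells (KO-KO against WT-KO) 0 of the 10 genes were called, beside 4.26% of all tested genes higher and 4.12% lower. At an unadjusted p under 0.05 there were 2 of the 10, beside 3413 of all. They were Pik3ip1, at -0.22 ± 0.0858 (adjusted p 0.138, groups apart, 5 of 5 pairs lower), and Akt1, at -0.10 ± 0.0464 (adjusted p 0.193, 5 of 5 pairs lower). Irs2 was -0.08 ± 0.106 (95% interval -0.30 to 0.14) and Rictor 0.07 ± 0.114 (-0.17 to 0.31). The intervals do not show that the states are alike; for Irs2 they exclude a difference as large as that after Lin28a loss.

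Whether the effect of Trim71 loss differed between the Lin28a states was tested directly as an interaction. Of the 10 genes 0 were called, beside 0.0200% of all tested genes, and 1 of the 10 had an unadjusted p under 0.05, beside 2256 of all. Rictor was that gene, with an interaction of 0.48 ± 0.176 (adjusted p 0.253). Pik3r1 followed at 0.28 ± 0.142 (adjusted p 0.358), and Irs2 stood at 0.01 ± 0.163 (95% interval -0.33 to 0.36).

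When both genes were lost (KO-KO against WT-WT), 6 of 10 genes were lower, where 24.6% of all tested genes were, and 1 was higher, where 21.0% were. It shares its libraries with the comparisons above. Irs2 was -0.87 ± 0.114 (adjusted p 1.75e-05), Irs1 -0.55, Pik3r1 -0.46, Akt1 -0.29 and Akt2 -0.18. The sixth was Pik3ip1, at -0.31 ± 0.0928 (adjusted p 0.0116, 4 of 4 pairs lower), a call lost without WT-WT replicate 4 (-0.21, adjusted p 0.072). Tsc1 was higher by 0.18 ± 0.0573 (adjusted p 0.0178, 3 of 4 pairs), a call lost without WT-WT replicate 1 (0.13, adjusted p 0.0971) or 2 (0.0549) or KO-KO replicate 1 (0.0842).

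By level per length in WT-WT, in linear units per kilobase of the chosen transcript, the order was Akt1 at 191, Akt2 at 104, Rictor at 55.9, Tsc1 at 52.3, Igf1r at 29.1, Pik3ip1 and Pik3r1 at 25.2, Irs2 at 22.8, Insr at 22.5 and Irs1 at 2.2. Irs2 and Insr, which were level in WT-WT, stood at 13.2 and 21.9 in WT-KO. The transcripts that actually make up each gene's signal may be shorter or longer than the one chosen. By genotype, the order of the group means for Irs2 was WT-WT, KO-WT, WT-KO and KO-KO, and of these neighbours only KO-WT and WT-KO did not overlap.

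Among 58 further genes of the pathway, listed by role, 55 were in the table and 50 were tested. After Lin28a loss with Trim71 intact 16 of the 50 rose, where 20.3% of all tested genes rose, and 16 fell, where 22.0% fell. Without Trim71 16 rose and 13 fell, beside 20.8% and 22.0% of all tested genes. These fits called 32 and 29 genes. With only clones E3 and C1 fitted, 11 rose and 3 fell with Trim71 intact, and 9 rose and 8 fell without Trim71. The share of all tested genes called in those refits is not given here. Of the ligands only Igf2 was tested. It fell by 1.83 ± 0.112 and 1.74 ± 0.112, from a mean of 5.13 ± 0.129 (SD, n = 4) in WT-WT to 3.30 ± 0.122 (n = 5) in WT-KO. In linear units its mean was 9.89 in WT-KO and 10.7 in KO-KO, near the filter of 10 units. These sizes hold for the deposited scale only. Igfbp4, which binds IGFs outside the cell, fell by 1.41 ± 0.118 and 1.37 ± 0.118. The imprinted adaptor Grb10, which inhibits both receptors, rose by 0.92 ± 0.114 and 1.04 ± 0.114. Sgk1, a kinase related to AKT and activated by mTORC2, rose by 0.78 ± 0.0338 and 0.85 ± 0.0338. Tbc1d4, the AKT substrate that controls glucose transporter traffic, rose by 0.55 ± 0.121 with Trim71 intact, and its difference without Trim71 was 0.28 ± 0.121 (adjusted p 0.0697). That of Tbc1d4 without Trim71 was called in some refits, for example without KO-WT replicate 2 (0.45, adjusted p 0.00275). The AKT-activating kinase Pdpk1 rose by 0.54 ± 0.0539 with Trim71 intact and by 0.75 ± 0.0539 without it. The adaptor Gab2 fell by 0.59 ± 0.0955 and 0.37 ± 0.0955, the latter -0.21 (adjusted p 0.397) with only clones 1 and 1-4 fitted. The adaptor Sh2b2 fell by 0.34 ± 0.101 and 0.48 ± 0.101. With Trim71 intact Sh2b2 was not called without WT-WT replicate 1 (-0.28, adjusted p 0.0631) or 2 (-0.23, adjusted p 0.0802). Nor was it called there with only clones E3 and C1 fitted (-0.37, adjusted p 0.136). With only clones 1 and 1-4 fitted, its differences were -0.30 with Trim71 intact and -0.53 without Trim71.

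By role, counts stand beside 20.3% higher and 22.0% lower of all tested genes with Trim71 intact, and 20.8% and 22.0% without it. With Trim71 intact the 5 genes tested among the binding proteins and clearance receptor were all called, 3 higher and 2 lower. Of 8 adaptors and brakes 1 was higher and 4 lower. Without Trim71 the counts were 2 and 2 of 5, and 1 and 3 of 8. The 5 PI3K subunits apart from Pik3r1 divided with Trim71 intact, 2 higher and 3 lower, and without Trim71 1 was higher and 0 lower. Of 10 genes of the TSC and mTOR complexes 4 were higher and 1 lower with Trim71 intact, and 5 higher and 4 lower without it. Chosen after their values were seen, Tsc2, the partner of Tsc1, was higher by 0.32 ± 0.0494 and 0.38 ± 0.0494, and Mtor by 0.43 ± 0.0515 and 0.46 ± 0.0515. Of 13 outputs of the pathway 4 were higher and 3 lower with Trim71 intact, and 5 higher and 3 lower without it. Apart from Sh2b2, each of the genes named as called in both Lin28a comparisons kept its calls in all 18 fits with 1 library left out.

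**Figure D4:**
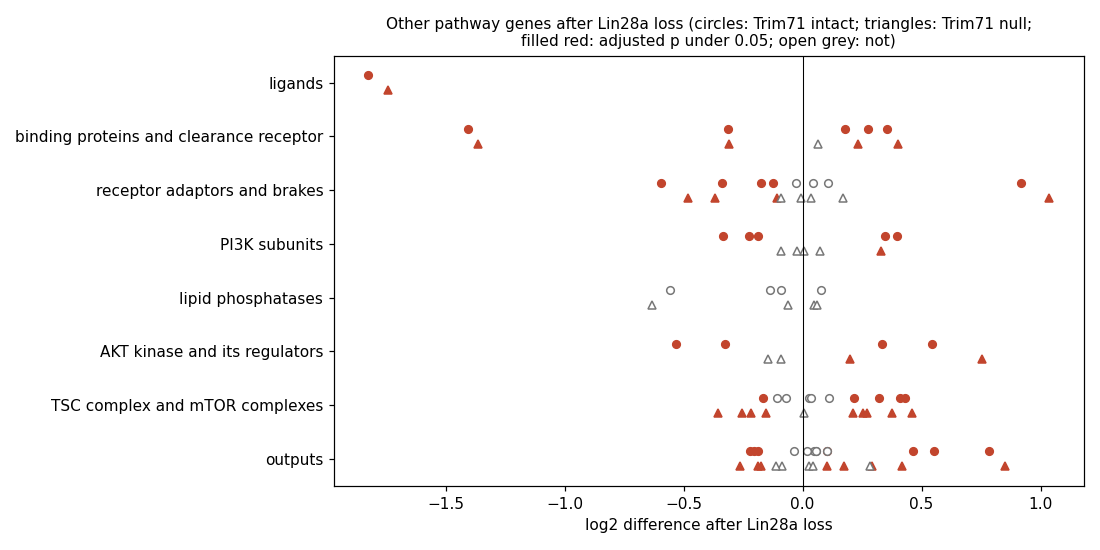
Log2 differences after Lin28a loss (x axis) of the 50 further pathway genes tested, by role (y axis), circles with Trim71 intact and triangles without, filled red where the adjusted p was under 0.05. Calls lie on both sides of 0 for most roles, and Igf2, the single ligand, is the lowest at -1.83 and -1.74.

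Trim71 loss called 2 of these 50 further genes with Lin28a intact and 5 in Lin28a-null cells, and 14 and 14 when the day block was dropped. Over all tested genes 4.74% rose and 6.43% fell with Lin28a intact, and 4.26% and 4.12% in Lin28a-null cells. With Lin28a intact, Akt1s1, an inhibitory subunit of mTORC1, was higher by 0.44 ± 0.0976 (adjusted p 0.0127), and Phlpp2, a phosphatase of AKT, fell by 0.40 ± 0.102 (adjusted p 0.0226). In Lin28a-null cells 2 rose, the transcription factor Foxo3 by 0.31 ± 0.0819 and the adaptor Shc1 by 0.15 ± 0.0385. There 3 fell: the AKT phosphatase Phlpp1 by 0.28 ± 0.0693, the translation inhibitor Eif4ebp1 by 0.22 ± 0.0508 and the autophagy kinase Ulk1 by 0.16 ± 0.0402. None of these calls held with only clones E3 and C1 fitted, at adjusted p from 0.166 (Eif4ebp1) to 0.48 (Shc1). They also changed when single libraries were left out. That of Akt1s1 was lost without WT-WT replicate 4 (0.32, adjusted p 0.0576), and that of Phlpp2 without WT-WT replicate 3 (adjusted p 0.0698) or 4 (0.0732) or KO-WT replicate 4 (0.0661). Without KO-KO replicate 1 all 5 calls in Lin28a-null cells were lost, at adjusted p from 0.0604 (Eif4ebp1) to 0.096 (Shc1). Some of the 5 were lost as well without any one of WT-KO replicates 1 to 5 or KO-KO replicates 2 and 3, for example Foxo3 without KO-KO replicate 2 (adjusted p 0.117). After loss of both genes 19 rose and 13 fell, beside 21.0% and 24.6% of all tested genes. Grb10 at 1.02, Sgk1 at 0.88 and Pdpk1 at 0.64 were the highest, and Igf2 at -1.72, Igfbp4 at -1.58 and Gab2 at -0.62 the lowest. The interaction called 0 of the 50, beside 0.0200% of all tested genes. At an unadjusted p under 0.05 there were 10 of the 50, beside 2256 of all 14988 tested genes.

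The let-7 matches were set beside the differences of all tested genes. With Trim71 intact, 22.9% of the 428 tested genes with an 8mer fell after Lin28a loss and 22.0% rose, beside 23.3% and 20.8% of the 10506 genes without a match. Their medians were -0.01 in both. Without Trim71, 23.4% of the genes with an 8mer fell and 27.1% rose, beside 23.2% and 20.4% of those without a match, and the medians were 0.04 and -0.01. No test of these shares was made. Of the 4 genes above with an 8mer, Irs2 was lower and Igf1r, Insr and Rictor were not called. Pik3r1 was lower with no match in the searched 3′ UTR, and Tsc1 was higher with 1.

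For each gene the tested genes with the most similar profile over the 18 libraries were found, by the root mean square (RMS) difference after centring. Irs2 was closest to Arap3 and Fbp1 (RMS 0.0929 and 0.102, beside an SD of 0.428 for Irs2 itself). Irs1 was closest to Pvr and Syne3 (0.0649 and 0.0811, SD 0.28), and Pik3r1 to Polq and Gxylt1 (0.0891 and 0.0948, SD 0.281). Akt1 was closest to Psmd4 (0.0349, SD 0.142) and Akt2 to Gga2 (0.033, SD 0.0949). Rictor was closest to Btaf1 and Zfp654 (both 0.059, SD 0.223). Igf1r was closest to Ubr2 (0.0424, SD 0.0968), Insr to Tm7sf3 (0.0388, SD 0.0643), Pik3ip1 to A330094K24Rik (0.0709, SD 0.16) and Tsc1 to Ppfia1 (0.038, SD 0.115). The SD was lowest for Insr and highest for Irs2 among the 10. The libraries share 4 clones, so likeness over them is a description.

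Promoters of the 3 genes that fell most are shown because these genes moved together after Lin28a loss. Each is the 250 bases before the RefSeq start on GRCm38.p6, 5′ to 3′ on the gene's strand, all minus: Irs1 at chr1:82291440-82291689, Irs2 at chr8:11008930-11009179 and Pik3r1 at chr13:101768218-101768467, the upstream of its 2 listed starts. Capitals mark motifs.
Irs1: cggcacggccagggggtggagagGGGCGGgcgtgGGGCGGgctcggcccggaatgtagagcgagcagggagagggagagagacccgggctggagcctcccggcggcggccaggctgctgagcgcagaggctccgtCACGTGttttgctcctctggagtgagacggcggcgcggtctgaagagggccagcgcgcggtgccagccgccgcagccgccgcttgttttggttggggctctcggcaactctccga
Irs2: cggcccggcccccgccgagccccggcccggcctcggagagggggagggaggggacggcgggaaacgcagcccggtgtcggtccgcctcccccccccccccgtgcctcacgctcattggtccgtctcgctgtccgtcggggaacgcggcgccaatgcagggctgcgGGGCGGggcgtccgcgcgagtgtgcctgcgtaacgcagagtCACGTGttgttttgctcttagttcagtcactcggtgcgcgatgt
Pik3r1: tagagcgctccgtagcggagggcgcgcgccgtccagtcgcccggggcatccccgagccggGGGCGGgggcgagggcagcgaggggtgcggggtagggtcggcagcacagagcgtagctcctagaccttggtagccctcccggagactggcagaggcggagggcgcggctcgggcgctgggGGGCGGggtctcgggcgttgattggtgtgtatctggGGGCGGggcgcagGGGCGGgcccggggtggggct

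The motifs searched on both strands, in windows of 250 bases before to 50 after the start, were GTAAACA (FoxO), CACGTG (E-box), GGGCGG (GC box), TGACTCA (AP-1) and GCGTGGGCG (EGR). Among 32851 promoters of that length they were found in 3.65%, 7.15%, 35.7%, 5.2% and 0.612%. The promoters of Irs1 and Irs2 each held 1 E-box, with 2 and 1 GC boxes, and that of Pik3r1 held 4 GC boxes and no E-box. None of the 3 held a FoxO, AP-1 or EGR match in this window.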

How the data were processed

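The authors deposited 1 table of normalised expression on a log2 scale, 21685 symbols in 19 libraries; the scale was read from the values, which ran from -0.71 to 16.30, and the transform is not given in the sources used here. Per the submitters' processing notes, CASAVA 1.8, STAR and DESeq2 were used; the build, annotation and counter are not given in the sources used here. Differences between days had been removed before deposit: in a fit of genotype and day the largest day term was 1.28e-08, against 0.673 with days shuffled within genotype. Depth is unknown, and fold sizes apply to the deposited scale.

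Genes at 10 units or more (a value of log2 of 10) in at least 4 of 18 libraries were tested (14988, 69.1%). limma 3.58.1 in R 4.3.3 fitted a mean for every genotype with day as a block, a trended variance and 10 residual degrees of freedom, and p-values were Benjamini-Hochberg adjusted over all tested genes. Day pairs the libraries, as the labels state; replicate numbers follow accession order and pair nothing. KO-WT against WT-WT has 3 same-day pairs, KO-KO against WT-KO 5 and the others 4. Simulated data were fitted for KO-WT against WT-WT only and held no differences between clones, and their outcome is not given here. They do not test the Lin28a comparisons. The members and all gene lists were chosen with earlier results of these data known. All 10 members were named; of the other pathway genes, the called genes with the largest difference, up to 3 in each direction per comparison. Not every gene of that list is reported by name here. Alternatives dropped day, changed scaling, filter, trend, GC and length correction and genotypes fitted, kept 1 set of clones or 3 days, and left out each library. Transcripts came from GENCODE M21, promoters and microRNAs from RefSeq (GRCm38.p6); promoters of 9 of the 10 members, all but Insr, were matched.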

Additional observations from a re-analysis of the deposited data

Results flagged for a closer look

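Dixon's test was applied to the 40 groups formed by 10 genes and 4 genotypes; chance flags about 1 in 20 groups. It marked 4 libraries, each the lowest of a group of 4; the ratio given is the gap to the nearest library over the range of the group. Irs2 in WT-WT replicate 1 stood at 7.03 (ratio 0.837). Pik3ip1 in KO-WT replicate 4 stood at 5.65 (ratio 0.959). Pik3r1 in KO-WT replicate 3 stood at 7.14 (ratio 0.855). Akt1 in WT-WT replicate 3 stood at 8.89 (ratio 0.953). Rictor was lower without Lin28a in all 4 same-day pairs with Trim71 intact and higher in all 4 without Trim71; the difference between these effects was 0.48, which the test of the interaction did not call (adjusted p 0.253).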

How the results depend on the processing

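Each comparison was refitted under up to 30 alternatives. Of 1784 refitted values 1726 kept the side of the threshold, 41 lost a call and 17 gained one, and no called value changed sign; 77 uncalled values did. Without the day block, KO-WT against WT-WT had 1 gene called (Rictor, adjusted p 0.0132) and KO-KO against WT-KO had 1 (Pik3ip1, 0.0457), in place of 0; the block itself comes from the labelled days, and without it degrees of freedom used in removing day are counted again. KO-WT against WT-WT had 1 gene called with 75th percentile scaling and between 0 and 1 when each library was left out. In clones E3 and C1 alone, 3 genes were called in WT-KO against WT-WT, 3 in KO-KO against KO-WT and 3 in KO-KO against WT-WT, in place of 6, 6 and 7, and in clones 1 and 1-4 alone 1 was called in KO-KO against KO-WT. These fits hold fewer libraries, and the share of all tested genes called in them is not given here. Their counts, and those of the further genes below, are therefore not read as particular to these genes. Over the named further pathway genes, 62 of 980 refitted values lost a call and 6 gained one (Tbc1d4 in KO-KO against KO-WT in each case), with no reversal. Of the 50 further genes 32 were called in WT-KO against WT-WT, with 14 when only clones E3 and C1 were fitted, and 29 in KO-KO against KO-WT, with 10 when only clones 1 and 1-4 were fitted. Trim71 loss called 2 and 5, with 14 and 14 without the day block. Irs2 kept its call in its 3 comparisons under every alternative run. Irs1 did not pass the stricter filter of 50 units, so it has no value there. Depth is unknown, so counting error could not be set against these differences.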
